A study of Rattus norvegicus with 12 samples.

Results

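The genes described here encode the proteasome, its inducible variant and the proteins that assemble and regulate it, measured by RNA-seq in retinas of rats injected in the eye with N-methyl-D-aspartate (NMDA), an agonist of one class of glutamate receptor, or with phosphate-buffered saline (PBS). Members were protein-coding genes of the deposited table whose symbol begins with Psma, Psmb, Psmc, Psmd, Psme, Psmf or Psmg and a number, or is Pomp, and the rule took 49 of 30560 genes. The NMDA group held 6 retinas, each given 2 µL of 20 mM NMDA into the vitreous, and the PBS group held 6 retinas given 2 µL of PBS by the same route. The labels name 1 rat for each library and call the preparation a glaucoma model. Strain, sex, age and the time between injection and collection are not given in the sources used here.

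The proteasome is the barrel-shaped protease that degrades proteins tagged with ubiquitin. Its core has outer rings of alpha subunits and inner rings of beta subunits, of which Psmb5, Psmb6 and Psmb7 carry the catalytic sites, and a regulatory cap of Psmc ATPases and Psmd subunits recognises, unfolds and feeds in the substrate. Interferons and other inflammatory signals make many cells express the alternative catalytic subunits Psmb8, Psmb9 and Psmb10, which replace Psmb5, Psmb6 and Psmb7 in newly built immunoproteasomes, and the activator pair Psme1 and Psme2 (PA28 alpha and beta), which caps the core without using ubiquitin. Immunoproteasomes are known for producing peptides shown to T cells on MHC class I, and the retina is known as an immune-privileged tissue.

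Of the 49 members, 31 were constitutive core and cap subunits, 5 were the inducible genes, 6 were assembly chaperones, 3 were other regulators (Psme3, Psme4 and Psmf1), 1 was the testis alpha subunit Psma8, and 3 matched by name alone. The last 3 were Psmc3ip and Psme3ip1, which encode partners of proteasome proteins and no subunit, and Psme1-ps1, named as a pseudogene of Psme1. Psma8 did not pass the low-count filter, with at most 1 count in any NMDA library and at most 3 in any PBS library, so 48 members were tested. Library totals ran between 16415611 and 34022023 counts. Over all genes, the libraries NMDA 1 and NMDA 3 stood apart from the other NMDA libraries on a second principal component, and PBS 5 lay nearest to the NMDA group on the first, which held 44.7% of the variance.

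All 5 inducible genes rose in the NMDA retinas, by 1.59-fold to 4.03-fold, and their median log2 fold change was 1.20. Of the 31 constitutive subunits, 21 rose, 10 did not pass the test and none fell, but the changes were small, with a median log2 fold change of 0.16 and a range of -0.04 to 0.32 (0.973-fold to 1.25-fold). The largest constitutive change was thus smaller than the smallest inducible one. Calls came from edgeR's quasi-likelihood test at an adjusted p under 0.05 over the 16260 genes that passed the filter, 37.9% of which changed. Higher calls made up 20.4% of these genes and lower calls 17.5%, and the median log2 fold change of all tested genes was 0.01. No constitutive subunit was lower at an unadjusted p under 0.05 in edgeR, and DESeq2 likewise made 0 lower calls among the members. Rises of 1.5-fold or more, which all 5 inducible genes and 0 of the 31 constitutive subunits showed, were called in 8.3% of genes.

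**Figure D1:**
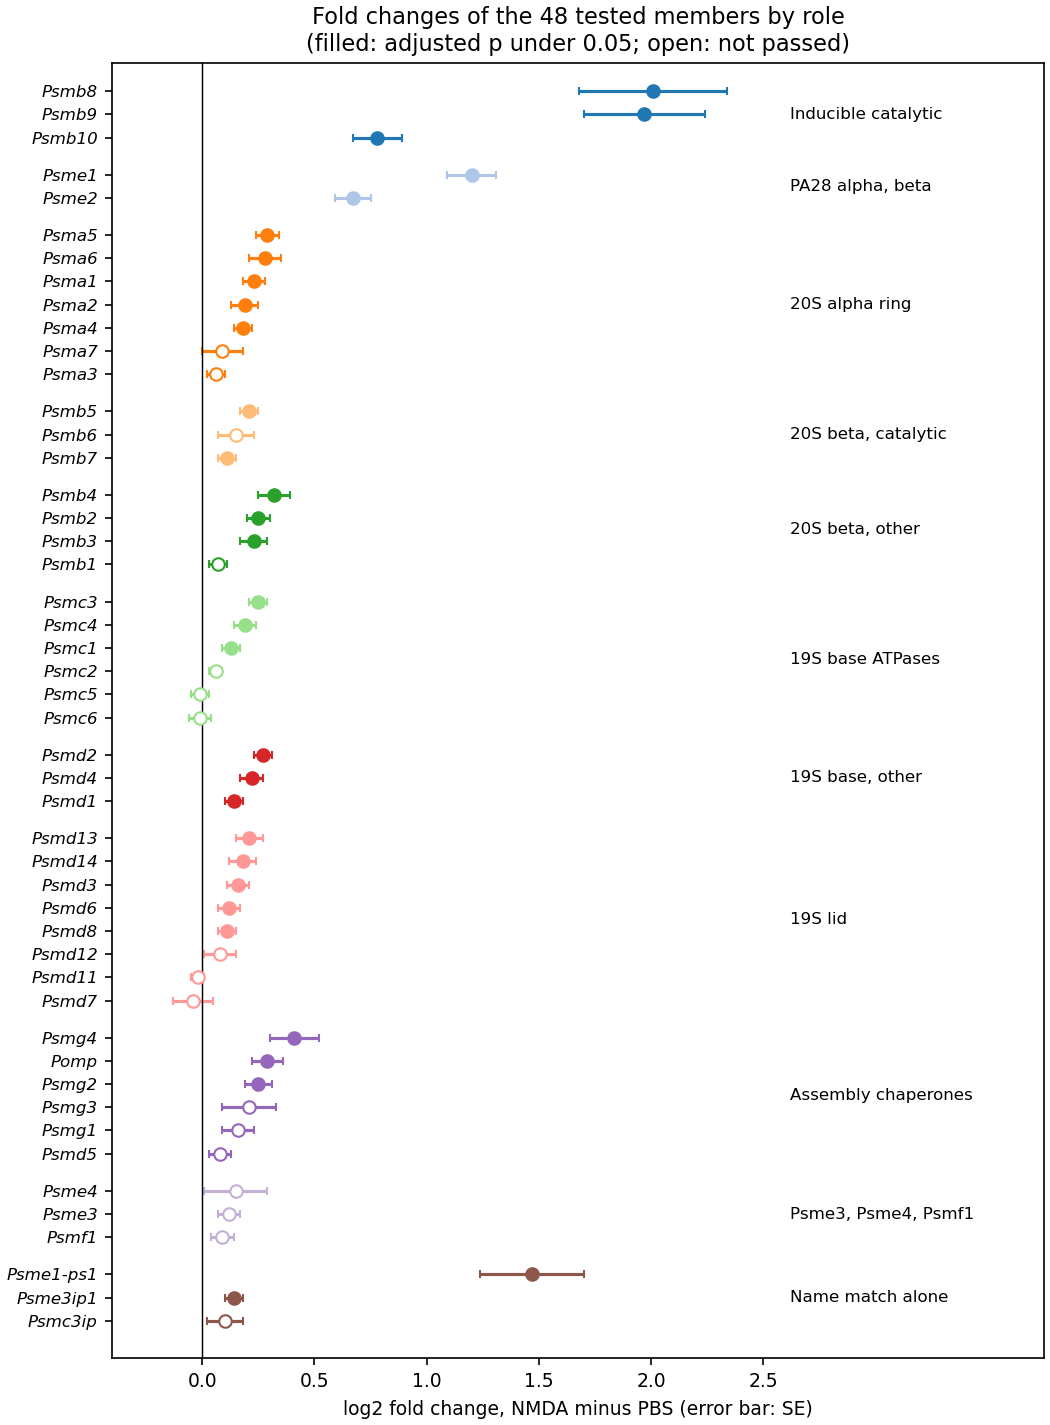
Log2 fold change of NMDA over PBS retinas (horizontal axis) for the 48 tested members grouped by role, with bars of 1 standard error and filled points for an adjusted p under 0.05. The 5 inducible genes lie between 0.67 and 2.01, and the 31 constitutive subunits lie between -0.04 and 0.32.

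The inducible catalytic genes sit in gene neighbourhoods that bear on how they are counted. In the deposited table Psmb8 (ENSRNOG00000000456) lies on chromosome 20 from 4652159 to 4655283 and Psmb9 (ENSRNOG00000000459) from 4666046 to 4672512, in the rat MHC, with the peptide transporter gene Tap1 between them. Psmb9 and Tap1 overlap by 856 bases there. Psmb10 (ENSRNOG00000019353) lies on chromosome 19 from 33827229 to 33833626, and Psme1 (ENSRNOG00000019041) and Psme2 (ENSRNOG00000019246) lie close together on chromosome 15, from 29068729 to 29071890 and from 29078500 to 29082946. The genome build of these positions is not given in the sources used here.

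Stretches of promoter are shown for the inducible genes whose start-site window held the interferon-response motif, for the divergent Tap1 and Psmb9 promoters, and for Psmb5 as a constitutive contrast. Sequences are from RefSeq on build GRCr8, 5′ to 3′ on the gene's own strand, and capitals mark a match on either strand to GAAANNGAAA or, in Psmb5, to TGACNNNGC.
Psmb8, chr20:4657012-4657081, minus strand: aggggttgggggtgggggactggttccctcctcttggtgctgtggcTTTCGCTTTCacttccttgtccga
Psmb10, chr19:50743293-50743377, minus strand: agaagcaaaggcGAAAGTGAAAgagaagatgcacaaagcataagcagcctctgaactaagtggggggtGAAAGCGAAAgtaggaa
Psme2, chr15:33052752-33052821, minus strand: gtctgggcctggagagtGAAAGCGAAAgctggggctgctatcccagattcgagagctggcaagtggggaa
Tap1, chr20:4668614-4668683, minus strand: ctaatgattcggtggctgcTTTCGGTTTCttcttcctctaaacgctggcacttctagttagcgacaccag
Psmb9, chr20:4668900-4668999, plus strand: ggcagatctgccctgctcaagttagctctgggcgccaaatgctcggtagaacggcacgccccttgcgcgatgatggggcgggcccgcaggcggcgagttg
Psmb5, chr15:32047400-32047469, minus strand: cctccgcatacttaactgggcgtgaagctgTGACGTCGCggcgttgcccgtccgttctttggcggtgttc

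The Psmb8 match began 4 bases upstream of the annotated start and ran across it. Psmb10 held a pair of matches, 73 and 17 bases upstream, and Psme2 held 1, 53 bases upstream. No match lay in the windows of Psmb9 and Psme1, which ran, as for all genes, over 250 bases before and 50 after the start. The Tap1 match stood 121 bases upstream of Tap1 and 336 bases from the Psmb9 start, since these genes run in opposite directions from RefSeq starts 457 bases apart. With these starts the genes do not overlap, unlike in the deposited table, where they overlap by 856 bases, so the annotations differ here.

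GAAANNGAAA, the core of the element bound by interferon regulatory factors, occurred in the windows of 3 of the 5 inducible genes and of 3 of the 27 constitutive subunits with a RefSeq promoter (Psma4, Psmb3 and Psmd7). It occurred in 808 of 21851 protein-coding promoters of the same length, or 3.7%. TGACNNNGC, the core of the antioxidant-response element bound by Nfe2l1 and Nfe2l2, occurred in 12.5% of promoters, in 6 of the 27 constitutive subunits and in 0 of the 5 inducible genes. The 6 were Psma3, Psmb2, Psmb5, Psmb6, Psmd1 and Psmd3. In all, 44 of the 49 members had a promoter in that table. These matches describe letters and are not evidence that a factor binds.

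Psmb8, the inducible form of the chymotrypsin-like subunit, had the largest fold change among the subunits. Its level in CPM, the count scaled to a common library size, had a lowest, median and highest value of 4.25, 11.6 and 16.5 in the NMDA retinas, against 1.79, 2.52 and 4.68 in the PBS retinas. The groups overlapped by 1 library each, NMDA 2 being lower than PBS 5, and the other 5 NMDA libraries were above every PBS library. Its log2 fold change was 2.01 ± 0.33 (SE, n = 6 retinas per group, adjusted p = 0.000572 by edgeR), or 4.03-fold. Psmb8 was also among the more variable genes, with 11.2 ± 4.45 CPM in NMDA retinas and 2.75 ± 1.10 CPM in PBS retinas (SD, n = 6 each).

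Psmb9, the inducible form of the caspase-like subunit, had a fold change close to that of Psmb8. It had 6.82, 11.4 and 15.9 CPM in NMDA retinas (lowest, median and highest), against 2.00, 2.59 and 5.00 CPM in PBS retinas. Every NMDA library lay above every PBS library, and PBS 5 was far above the other PBS libraries. The log2 fold change was 1.97 ± 0.27 (SE, edgeR adjusted p = 0.000195). Because Psmb9 and Tap1 overlap in the deposited table and the strand setting of the counting is not given, reads from the shared bases cannot be told apart.

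Psmb10, the inducible form of the trypsin-like subunit, changed less and more evenly. Its lowest, median and highest levels were 17.1, 22 and 25.7 CPM in NMDA retinas and 10.8, 13.1 and 13.6 CPM in PBS retinas. The groups did not overlap, and the log2 fold change was 0.78 ± 0.11 (SE, edgeR adjusted p = 0.000195). The row for Psmb10 carries the description of the neighbouring protease gene Ctrl, which has no row of its own, so the 2 genes' reads cannot be told apart in this row.

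Psme1 and Psme2 encode the paired subunits of the activator ring. Psme1 had 65.3, 75.6 and 89.0 CPM in NMDA retinas and 27.4, 32.0 and 40.5 CPM in PBS retinas, and Psme2 had 9.58, 11.0 and 12.4 CPM in NMDA retinas and 6.31, 6.91 and 7.58 CPM in PBS retinas. In both genes all NMDA libraries were above all PBS libraries. The log2 fold change of Psme1 was 1.20 ± 0.11 (SE), and its edgeR adjusted p of 1.79e-05 was the smallest of any member; that of Psme2 was 0.67 ± 0.08 (adjusted p = 7.72e-05). The pseudogene Psme1-ps1 moved with its parent, at 2.26, 3.21 and 3.81 CPM in NMDA retinas and 0.508, 1.11 and 1.75 CPM in PBS retinas (log2 fold change 1.47 ± 0.23, edgeR adjusted p = 0.00045). A near copy can take reads of its parent, so the Psme1-ps1 value is uncertain.

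**Figure D2:**
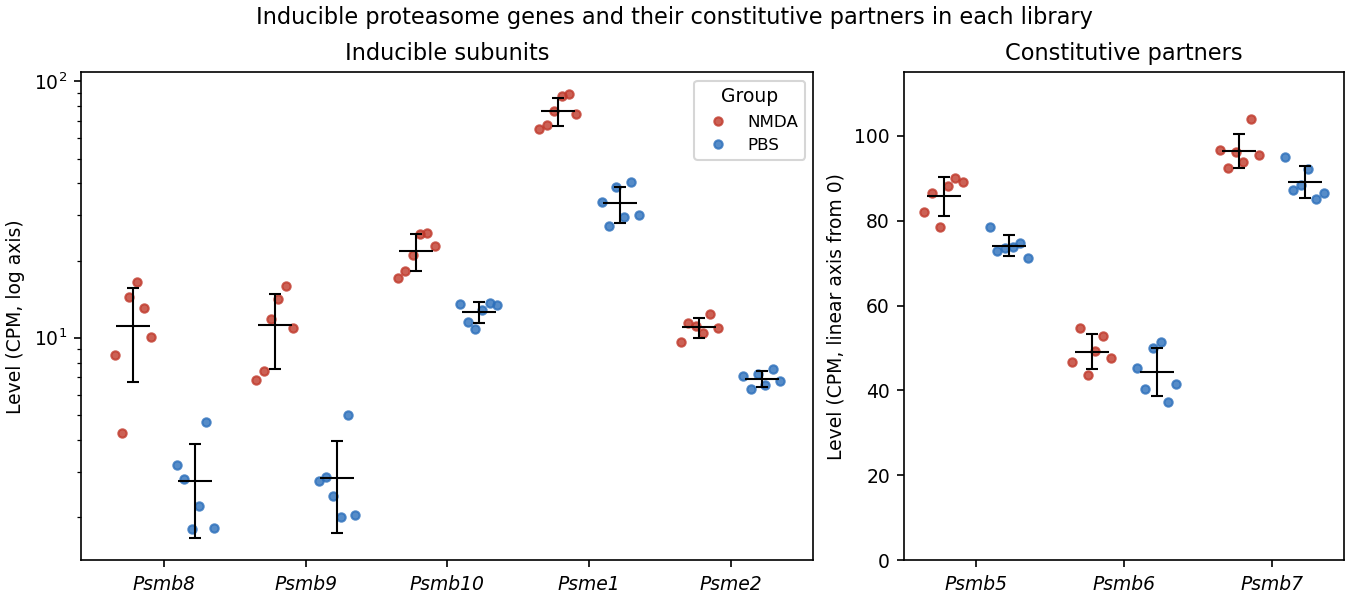
Levels in CPM of the 5 inducible genes (left, log axis) and of Psmb5, Psmb6 and Psmb7 (right, linear axis from 0), with 1 point per retina, NMDA beside PBS, and bars of the mean and SD. Psmb9, Psmb10, Psme1 and Psme2 show no overlap between the groups, whereas the Psmb6 points of the groups intermingle.

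The 5 inducible genes shared their order among retinas in part. PBS 5 was the highest PBS library for all 5, and NMDA 1 was the lowest NMDA library for Psmb9, Psmb10, Psme1 and Psme2, while NMDA 2 was the lowest for Psmb8. Leaving out PBS 5 gave a log2 fold change of 2.22 for Psmb8 and of 2.21 for Psmb9, and all 5 genes passed the test with any 1 library left out.

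Summed markers of immune and glial cells were compared between the same groups, without a test of the sums. The summed level of 15 microglia and macrophage markers was 168, 240 and 384 CPM in NMDA retinas (lowest, median and highest), against 92.8, 138 and 210 CPM in PBS retinas. The groups overlapped. Of these 15 genes 12 rose, 1 fell and 2 did not pass the test. The gene that fell was P2ry12, a marker of resting microglia, by 0.52 in log2 units, named after its value was seen. The 2 that did not pass were Fcer1g at -0.06 and Tmem119 at 0.20. Fcer1g was a large part of the sum, at 23.4, 40.0 and 82.3 CPM in NMDA retinas and 14.7, 43.5 and 91.4 CPM in PBS retinas. The 7 T and NK cell markers summed to 2.98, 6.63 and 7.95 CPM in NMDA retinas and 0.665, 1.15 and 2.46 CPM in PBS retinas. Only 3 of these 7 genes passed the low-count filter, of which Cd8a and Cd3e rose and Lck did not pass the test. Cd8a was a large part of the sum in NMDA retinas, at a mean of 2.63 CPM against 0.0772 CPM in PBS retinas. The 7 neutrophil markers summed to 2.13, 6.21 and 44.5 CPM in NMDA retinas and 0.544, 1.73 and 4.6 CPM in PBS retinas. Their groups overlapped, and only 2 of the 7 genes passed the filter, each of which rose. PBS 5 was the highest PBS library and NMDA 2 the lowest NMDA library for all 3 of these immune lists.

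Reactive glia markers, 7 genes, summed to between 1196.7 and 2707.9 CPM in NMDA retinas and between 555 and 1123.6 CPM in PBS retinas, and 5 of 6 tested genes rose. Müller glia markers, 7 genes, went the other way. They summed to between 2627.6 and 3673.0 CPM in NMDA retinas and between 4250.5 and 6135.6 CPM in PBS retinas. Of these 7 genes 5 fell, 1 rose and 1 did not pass the test. Ganglion cell markers, 9 genes, summed to between 162 and 473 CPM in NMDA retinas and between 687 and 829 CPM in PBS retinas, and 9 rod markers to between 38825.8 and 54789.1 CPM in NMDA retinas and between 53931.5 and 57449.9 CPM in PBS retinas. Of these, 8 of 9 ganglion cell markers and 7 of 9 rod markers fell. No listed marker was at 0 in all 12 libraries. The part of these cell types in the rise of the inducible genes was not tested, and in whole retina more cells of a type and more RNA per cell cannot be told apart.

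Levels scaled for gene length and depth (FPKM) placed the inducible genes at the low end of the complex. Psmb8 had 7.63 ± 3.05 FPKM in NMDA retinas and 1.82 ± 0.733 FPKM in PBS retinas, and Psmb9 had 5.51 ± 1.81 FPKM in NMDA retinas and 1.35 ± 0.537 FPKM in PBS retinas (SD, n = 6 each). Psmb10 had 6.38 ± 1.12 FPKM in NMDA retinas and 3.57 ± 0.336 FPKM in PBS retinas, and Psme2 had 8.20 ± 0.812 FPKM in NMDA retinas and 4.99 ± 0.351 FPKM in PBS retinas. These 4 were below the lowest constitutive subunit, Psmb3, at 11.2 FPKM in NMDA retinas and 9.23 FPKM in PBS retinas, in both groups. The order depends on the gene lengths behind the FPKM, which were uneven, at 5824 bases for Psmb3, 3464 for Psmb10 and 1171 for Psmb7. In CPM the lowest constitutive subunit was Psmb2, at a mean of 45.1 in NMDA retinas and 37.9 in PBS retinas. The same 4 genes were below it in both groups. Psme1 was also below it in PBS retinas, at a mean of 33.4 CPM, but not in NMDA retinas, at 76.8 CPM. In FPKM, Psme1, at 43.7 ± 5.95 in NMDA retinas and 18.4 ± 2.99 in PBS retinas, lay within the constitutive range. The most abundant subunit of the PBS retinas was Psmd2, at 102 ± 6.98 FPKM in NMDA retinas and 81.8 ± 2.11 FPKM in PBS retinas.

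**Figure D3:**
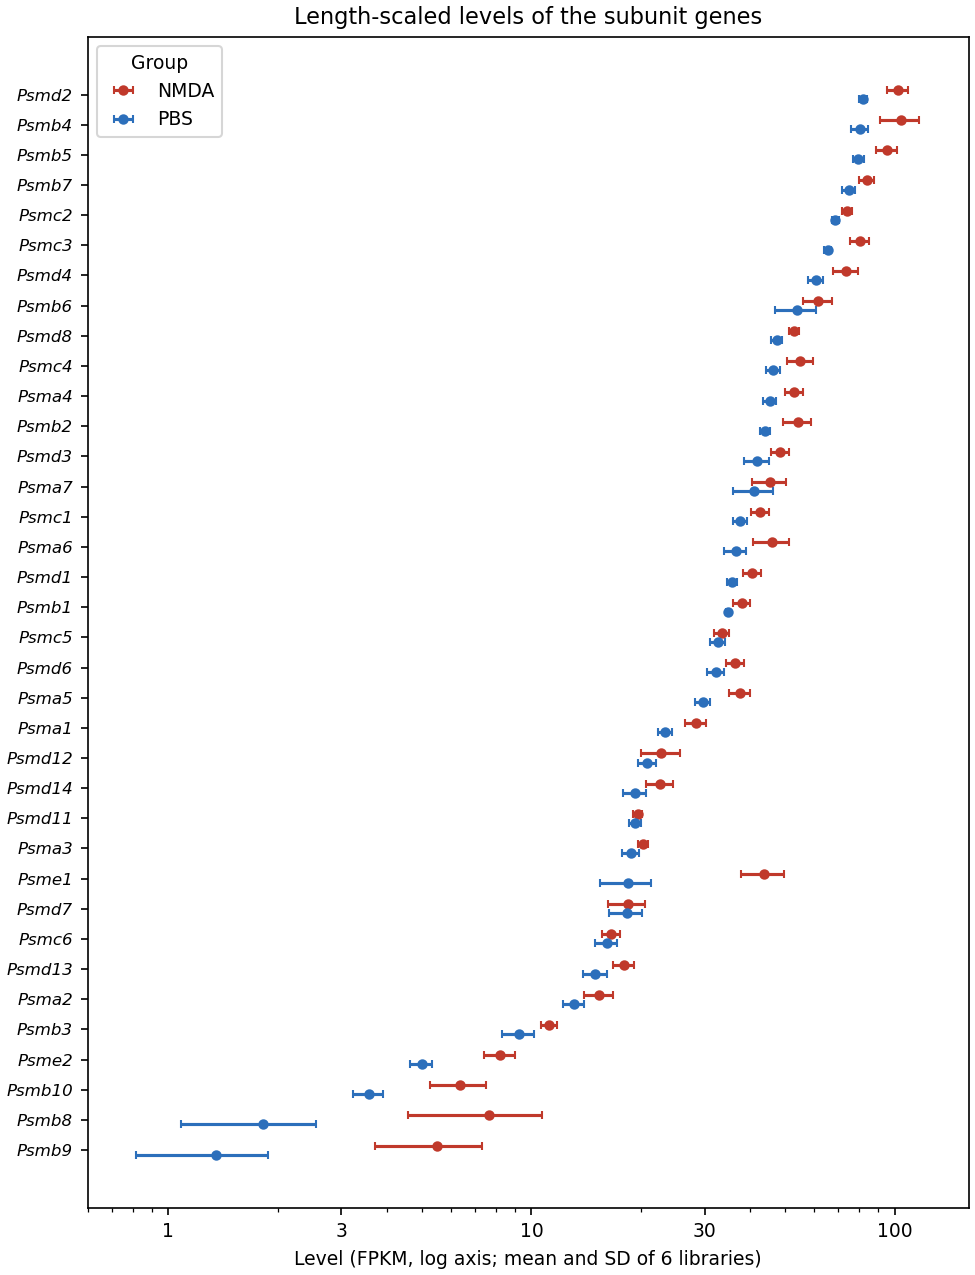
Mean and SD of FPKM (log axis) over 6 NMDA and 6 PBS retinas for the 5 inducible genes and the 31 constitutive subunits, ordered by level in PBS retinas. Psmb9, Psmb8, Psmb10 and Psme2 hold the 4 lowest places, and Psme1 alone among the inducible genes stands within the constitutive range.

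Summed over the 5 inducible genes, the NMDA retinas held 57.1 to 85.6 FPKM and the PBS retinas 26 to 37.3 FPKM. The sum over the 31 constitutive subunits was 1344.1 to 1542.0 FPKM in NMDA retinas and 1213.9 to 1277.5 FPKM in PBS retinas. Neither sum overlapped between the groups, and the constitutive sum was 17.8 to 24.3 times the inducible one in NMDA retinas and 32.5 to 47.5 times in PBS retinas. FPKM were scaled by total counts, without the TMM factors used for CPM. Those factors were 0.9925 to 1.034 in NMDA libraries and 0.9758 to 0.9907 in PBS libraries. Applying them would narrow the gap between the groups in each sum, but would not alter the ratio of the sums within a library.

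Each inducible catalytic subunit was then set against the constitutive subunit whose place it takes, as a ratio of FPKM within each retina. Psmb8 made up 2.94%, 7.36% and 10.3% of the Psmb8 and Psmb5 total in NMDA retinas (lowest, median and highest), against 1.48%, 2.07% and 3.72% in PBS retinas. NMDA 2 fell inside the PBS range and the other NMDA libraries were above it. The log2 ratio was -3.77 ± 0.72 in NMDA retinas and -5.54 ± 0.51 in PBS retinas (SD, n = 6 each), a difference of 1.77 (two-sided exact permutation test, p = 0.00433, and also 0.00433 after Benjamini-Hochberg adjustment over the 3 pairs).

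Psmb9 made up 5.06%, 8.92% and 10.5% of the Psmb9 and Psmb6 total in NMDA retinas and 1.50%, 2.11% and 5.01% in PBS retinas. The groups were separate by a narrow margin, NMDA 2 against PBS 5. The log2 ratio differed by 1.83 (exact permutation p = 0.00216, adjusted 0.00325), and adding a beta 6-like copy to Psmb6, a choice made after seeing the data, gave 1.82. Psmb10 made up 5.64%, 7.19% and 8.35% of the Psmb10 and Psmb7 total in NMDA retinas and 3.96%, 4.53% and 5.13% in PBS retinas, with no overlap and a difference of 0.66 in the log2 ratio (exact permutation p = 0.00216, adjusted 0.00325). A p of 0.00216 is the smallest that 6 against 6 libraries can give. The shares depend on the gene lengths behind the FPKM. Without length scaling, Psmb10 and Psmb7 had means of 21.7 and 96.4 CPM in NMDA retinas and 12.6 and 89.1 CPM in PBS retinas. The differences between groups do not depend on length, and ratios of CPM gave the same 1.77, 1.83 and 0.66.

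**Figure D4:**
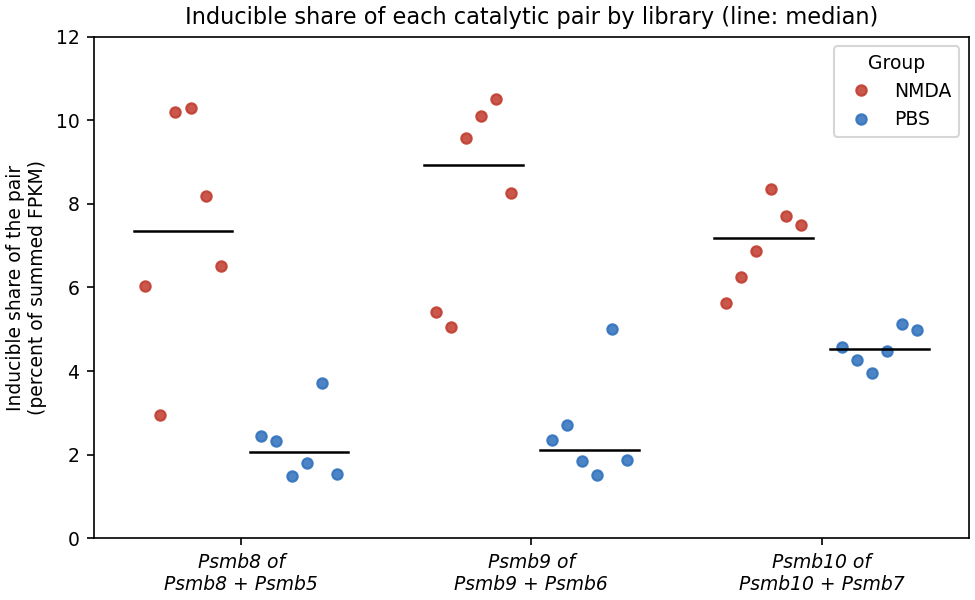
Share of each inducible subunit in the summed FPKM of its catalytic pair (percent, vertical axis), with 1 point per retina, NMDA beside PBS, and a line at the median. The median share was 7.36%, 8.92% and 7.19% in NMDA retinas and 2.07%, 2.11% and 4.53% in PBS retinas for the Psmb8, Psmb9 and Psmb10 pairs.

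The constitutive partners themselves changed little. Psmb5 had 78.5, 87.4 and 90.1 CPM in NMDA retinas and 71.3, 73.7 and 78.6 CPM in PBS retinas, and rose by 0.21 ± 0.04 in log2 units (edgeR adjusted p = 0.00155). NMDA 3 was just under PBS 1 and the other NMDA libraries were above all PBS libraries. Psmb6 had 43.7, 48.4 and 54.8 CPM in NMDA retinas and 37.2, 43.5 and 51.4 CPM in PBS retinas, with groups that overlapped widely, and did not pass the test (0.15 ± 0.08, adjusted p = 0.181). Psmb7 had 92.5, 95.8 and 104 CPM in NMDA retinas and 85.1, 87.8 and 95.1 CPM in PBS retinas, a rise of 0.11 ± 0.04 (adjusted p = 0.0334) that was lost on leaving out any 1 of 7 libraries (NMDA 1, 5 or 6, or PBS 2, 3, 5 or 6), with an adjusted p of up to 0.0828. Psmb7 also overlaps the kinase gene Nek6 by 41293 bases, and Nek6 stood at 49.0 CPM in NMDA retinas and 23.9 CPM in PBS retinas.

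In the alpha rings, which gate the entry to the core, 5 of 7 subunits rose and 2 did not pass the test. Psma5 rose by 0.29 ± 0.05 (edgeR adjusted p = 0.000617), with 52.6, 57.5 and 60.5 CPM in NMDA retinas against 43.0, 46.8 and 49.1 CPM in PBS retinas, and Psma6 by 0.28, Psma1 by 0.23, Psma2 by 0.19 and Psma4 by 0.18. Psma5, Psma1 and Psma4 showed no overlap between groups. Psma3 and Psma7 had log2 fold changes of 0.06 and 0.09, and Psma2 lost its call without PBS 4 or without PBS 6 (adjusted p of up to 0.0601).

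Among the structural beta subunits, which line the core without a catalytic site, 3 of 4 rose. Psmb4 had the largest log2 fold change of the constitutive subunits, 0.32 ± 0.07 (edgeR adjusted p = 0.00292), with 94.6, 118 and 130 CPM in NMDA retinas and 84.5, 93.6 and 98.9 CPM in PBS retinas. Its groups overlapped through NMDA 1, and the other 5 NMDA libraries were above all PBS libraries. Psmb2 rose by 0.25 with no overlap, Psmb3 rose by 0.23, and Psmb1 had 0.07 and did not pass.

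In the cap, 11 of 17 subunits rose and 6 did not pass. Of the ring of ATPases that unfolds substrates, Psmc3 rose by 0.25 ± 0.04 (edgeR adjusted p = 0.000347), with 129, 138 and 149 CPM in NMDA retinas and 113, 117 and 121 CPM in PBS retinas, and the groups did not overlap. Psmc4 rose by 0.19 and Psmc1 by 0.13, whereas Psmc2, Psmc5 and Psmc6 did not pass, at 0.06, -0.01 and -0.01. The members of 1 ring thus differed in whether they passed, though the differences between them were not tested.

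All 3 other base subunits among the members rose. Psmd2 and Psmd1 are the large scaffolds of the base and Psmd4 is a ubiquitin receptor. Psmd2 had 264, 297 and 319 CPM in NMDA retinas and 239, 245 and 256 CPM in PBS retinas without overlap (log2 fold change 0.27 ± 0.04, edgeR adjusted p = 0.000375). Psmd4 rose by 0.22 and Psmd1 by 0.14. Adrm1, another ubiquitin receptor of the proteasome that lies outside the naming rule, had 0.06 and did not pass (edgeR adjusted p = 0.353). Several members overlap other protein-coding genes, among them Psmc1 with Nrde2, Psmc3 with Slc39a13, Psmb3 with Pip4k2b, Psmd6 with Atxn7 and Psmg2 with Ptpn2, and their reads in the shared bases cannot be told apart.

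Of the 8 lid subunits 5 rose, with log2 fold changes of 0.11 to 0.21. Psmd13 rose by 0.21 ± 0.06 (edgeR adjusted p = 0.00814), at 67.6, 71.9 and 80 CPM in NMDA retinas against 54.9, 63.6 and 66.8 CPM in PBS retinas, with no overlap. Psmd14, the deubiquitinase that strips ubiquitin from substrates, rose by 0.18, Psmd3 by 0.16, Psmd6 by 0.12 and Psmd8 by 0.11, while Psmd12, Psmd11 and Psmd7 did not pass, at 0.08, -0.02 and -0.04.

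These small calls were the least firm of the set. Leaving out 1 library ended the call of Psmc1 in 7 cases (NMDA 1, 2, 4 or 6, or PBS 3, 4 or 5, edgeR adjusted p up to 0.0848) and of Psmd14 in 7 (NMDA 4, 5 or 6, or PBS 1, 2, 5 or 6, up to 0.0695). Psmd3 lost its call in 5 cases (NMDA 1, 2, 5 or 6, or PBS 6, up to 0.066). Psmd6 lost it in 10, all but NMDA 3 and PBS 3 (up to 0.105), and Psmd8 in 8 (NMDA 1, 2, 4 or 5, or PBS 3, 4, 5 or 6, up to 0.108). The number of constitutive subunits called higher ran between 15 without PBS 6 and 21 over the 12 such fits, and was 19 without PBS 5 and NMDA 3 together. Scaling by library size alone in place of TMM raised the share of higher calls among changed genes to 64.6%, against 53.8%, called 23 constitutive subunits higher, and turned the signs of Psmc5, Psmc6, Psmd11 and Psmd7 positive. Relative to the median of all genes, the constitutive median was 0.15 higher under either scaling.

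Over the 48 tested members, all NMDA libraries were above all PBS libraries for 14, namely 4 inducible genes, 7 constitutive subunits, Psmg2, Psmg4 and Psme1-ps1, and below them for none. Among all tested genes, 9.43% were so separated upwards and 8.66% downwards. A positive log2 fold change was found in 44 of the 48 members, against 52.5% of genes.

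Assembly factors build the core and the cap from free subunits. Pomp, the maturation factor needed for beta subunits to join, had 38.9, 42.6 and 49.1 CPM in NMDA retinas and 32.8, 34.4 and 40.1 CPM in PBS retinas, with 4 NMDA libraries above all PBS libraries, and rose by 0.29 ± 0.07 (edgeR adjusted p = 0.00783). Psmg4, a chaperone of the alpha ring, rose by 0.41 ± 0.11 (adjusted p = 0.00906), at 5.81, 7 and 7.88 CPM in NMDA retinas and 3.84, 5.45 and 5.61 CPM in PBS retinas. Its groups did not overlap, PBS 3 being the lowest library. Psmg2 rose by 0.25, while Psmg3 at 0.21, Psmg1 at 0.16 and the cap chaperone Psmd5 at 0.08 did not pass.

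The other regulators did not pass the test. Psme3, the nuclear activator related to Psme1 and Psme2, had 81.9, 85.1 and 97.8 CPM in NMDA retinas and 77.6, 79.7 and 85.5 CPM in PBS retinas (log2 fold change 0.12 ± 0.05, edgeR adjusted p = 0.0534). Psme4, which encodes the activator PA200, had 143, 168 and 207 CPM in NMDA retinas and 107, 150 and 196 CPM in PBS retinas (0.15 ± 0.14, adjusted p = 0.438), and its groups overlapped almost fully. Psmf1, an inhibitor of the core in vitro, had 37.5, 41.0 and 44.2 CPM in NMDA retinas and 36.1, 38.2 and 41.9 CPM in PBS retinas (0.09 ± 0.05, adjusted p = 0.198). Of the name matches, Psme3ip1 rose by 0.14 (adjusted p = 0.0266, not passed without NMDA 1, NMDA 6, PBS 2 or PBS 4, up to 0.0716) and the meiotic recombination gene Psmc3ip had 0.10 and did not pass.

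Genes that act beside the proteasome were read from 5 lists. For comparison, 20.4% of all tested genes were called higher and 17.5% lower. The antigen-processing list holds genes that carry proteasome products to MHC class I, and 8 of its 9 measured genes rose, with a median log2 fold change of 0.61. Tap1, a subunit of the peptide transporter, rose by 1.81 ± 0.31 (edgeR adjusted p = 0.000821), at 13.8, 21.8 and 38.6 CPM in NMDA retinas and 2.98, 6.77 and 12 CPM in PBS retinas, without overlap. B2m, the light chain of class I molecules, rose by 1.68, the aminopeptidase Lap3 by 0.86, and the loading chaperones Calr and Pdia3 by 0.61 and 0.56. Tap2, the partner of Tap1, did not pass, at 0.46 ± 0.31 (adjusted p = 0.274), and was singled out after its value was seen.

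Of 13 interferon receptors, kinases and transcription factors, 11 rose and 2 did not pass, with a median log2 fold change of 0.44. Nlrc5, an activator of MHC class I genes and of Psmb9 in human and mouse cells, rose by 2.49 ± 0.37 (edgeR adjusted p = 0.00039), at 15.4, 20.9 and 37.9 CPM in NMDA retinas and 1.69, 3.12 and 8.01 CPM in PBS retinas. Irf1, a transcription factor of the immunoproteasome genes in mouse, rose by 0.63 ± 0.11 (adjusted p = 0.000626), at 25.6, 34 and 39.8 CPM in NMDA retinas and 19, 20.8 and 24.7 CPM in PBS retinas. Neither gene's groups overlapped. Irf8, a factor of myeloid cells, rose by 1.61, Stat2 by 0.59 and the receptor gene Ifnar1 by 0.19.

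Among factors and adaptors of the constitutive proteasome, 1 of 13 genes rose, 2 fell and 10 did not pass. Their median log2 fold change was 0.01, as it was for all tested genes, of which 20.4% were called higher and 17.5% lower. Nfe2l1, the factor that drives subunit genes when the proteasome is inhibited, fell by 0.22 ± 0.05 in log2 units (edgeR adjusted p = 0.00264), at 180, 195 and 211 CPM in NMDA retinas and 217, 223 and 252 CPM in PBS retinas, and all NMDA libraries were below all PBS libraries. Zfand5, a proteasome-binding protein, fell by 0.22 and its groups too were separate. Fbxo7 rose by 0.14 (adjusted p = 0.0392), a call lost without any 1 of 8 libraries (NMDA 2, 4, 5 or 6, or PBS 1, 2, 3 or 4, adjusted p up to 0.088), and Nfe2l2 had 0.88 without passing (adjusted p = 0.0791).

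Of 12 ubiquitin receptors, shuttles and deubiquitinases, 3 were higher and 9 did not pass, with a median of 0.00. Higher calls made up 20.4% of all tested genes. Sem1, a small lid subunit that lies outside the naming rule, rose by 0.39 (edgeR adjusted p = 0.00018) with no overlap, the shuttle gene Rad23b by 0.33, and Ubqln4 by 0.13, a call lost without any 1 of 6 libraries (NMDA 1, 4 or 6, or PBS 2, 3 or 4, adjusted p up to 0.1). The segregase gene Vcp had 0.11 and did not pass (adjusted p = 0.0544). Of 5 ubiquitin and E1 enzyme genes Rps27a, a ubiquitin and ribosomal fusion gene, rose by 0.53, and the other 4, among them Ubb, Uba1 and Uba6, did not pass. The Rps27a row was low, at a mean of 7.62 CPM in NMDA retinas and 5.29 CPM in PBS retinas. Ubb stood at a mean of 1041.7 CPM in NMDA retinas and 983 CPM in PBS retinas.

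**Figure D5:**
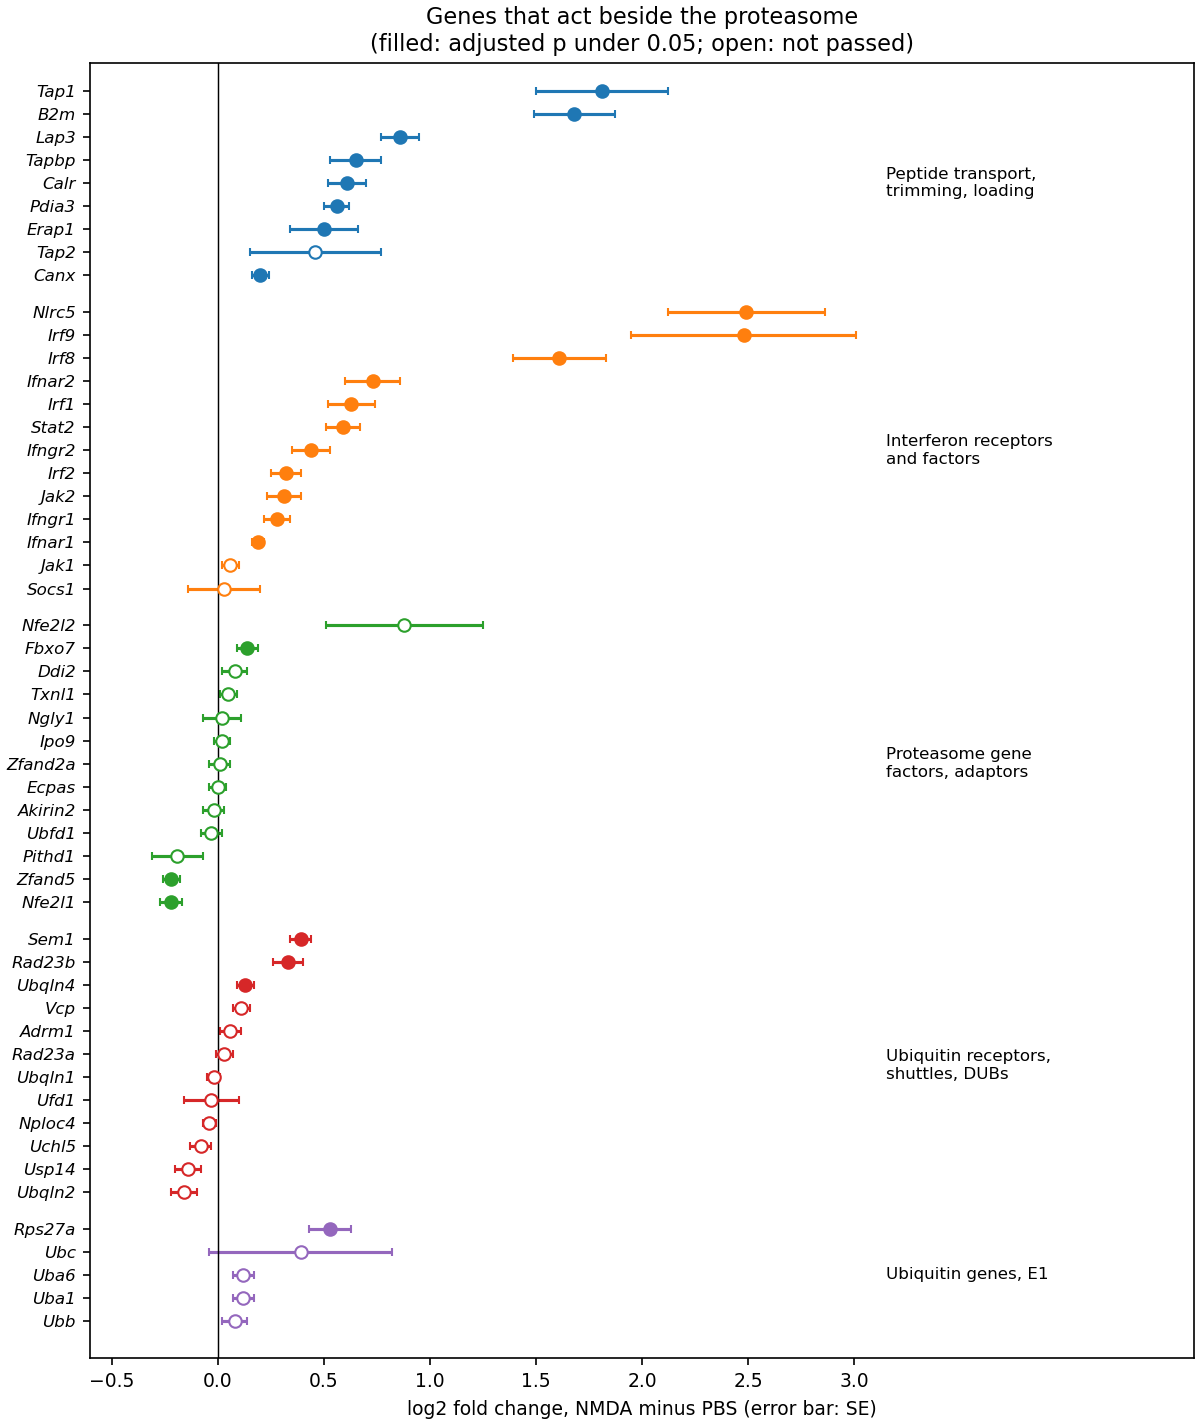
Log2 fold change of NMDA over PBS retinas (horizontal axis) for the tested genes of 5 lists that act beside the proteasome, with bars of 1 standard error and filled points for an adjusted p under 0.05. Nlrc5, at 2.49, lies farthest to the right, and Nfe2l1 and Zfand5, both at -0.22, are the lowest filled points.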

How the data were processed

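Counts and FPKM were deposited by the authors in 1 table of 30560 genes and 12 libraries. Per the submitters' processing notes, Bowtie2, RSEM 1.3.1 and DESeq2 1.4.5 were used; the genome build, annotation and strand setting are not given in the sources used here. The deposited counts are whole numbers, 16415611 to 34022023 per library. The FPKM deposited by the authors equal those counts scaled by depth and gene length, to within 4.09e-06 in 9871 genes with at least 200 counts. From the counts, edgeR 4.0.16 (R 4.3.3; TMM; filterByExpr with minimum count 10 and total 15; robust quasi-likelihood test of NMDA over PBS) gave log2 fold changes, standard errors and Benjamini-Hochberg adjusted p-values over 16260 genes, threshold 0.05. CPM used TMM-scaled library sizes. Pair ratios used deposited FPKM and an exact permutation test over 924 assignments. DESeq2 1.42.0 and limma 3.58.1 served as alternatives. The edgeR step was tested on simulated data. Low, middle and high values are the lowest, median and highest of 6 libraries.

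P-values set the difference between groups against the spread between these libraries. Whether rats were housed or processed together is not given. Replicate numbers did not pair the samples. Promoters were RefSeq windows of 300 bases on GRCr8. The members, lists and tests were chosen with earlier results of these data known. Named genes were the inducible genes, their partners, Psme3, Psme4, Psmf1 and Pomp, the 4 members of each other role with the smallest adjusted p, other members past the threshold, and from each related list the 4 genes with the smallest adjusted p plus Tap1, Irf1, Nlrc5 and Nfe2l1. Genes that share reads with copies or overlapping genes are uncertain. Some genes of the complex and of the lists are not analysed here.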

Additional observations from a re-analysis of the deposited data

Results flagged for a closer look

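Dixon's test, which chance alone passes in about 1 in 20 groups, was applied to 130 groups of 6 libraries, and in 8 of them 1 library stood apart. Psmb9 in PBS 5 was high at 5.00 CPM, next to 2.86 CPM in the nearest PBS library. Psmb7 in NMDA 5 was high at 104 CPM, with the nearest NMDA library at 96.6 CPM. Psma2 in NMDA 5 was high at 61.9 CPM (nearest 52.9 CPM). Psmd3 in NMDA 3 was low at 120 CPM (nearest 131 CPM). Psmg4 in PBS 3 was low at 3.84 CPM (nearest 5.24 CPM), and the same library was high for Psmb3 at 65.4 CPM (nearest 55.5 CPM) and for Nfe2l1 at 252 CPM (nearest 227 CPM). Psmc3ip in PBS 2 was high at 15.7 CPM (nearest 13.1 CPM). PBS 3 was also the library with the fewest counts, 16415611.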

How the results depend on the processing

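No called member or pair ratio changed direction under the alternatives run, but 4 constitutive subunits that did not pass (Psmc5, Psmc6, Psmd11 and Psmd7) had positive signs with library-size scaling or limma on FPKM, where 31 of the 31 constitutive subunits were positive, against 27, and 28 were positive without NMDA 6 and 29 without NMDA 3, NMDA 4 or PBS 3. All 5 inducible genes were called higher under every one except a filter of 10 CPM in 6 libraries, where 2 were called because Psmb8, Psmb9 and Psme2 were not tested. The replicate numbers did not pair the samples, since same-numbered libraries had correlations of -0.19 to 0.153; with the number as a replicate block, 5593 genes changed, against 6167 without it, 27 members and 17 constitutive subunits were higher, 5 inducible genes were higher and 0 members lower, and the pair ratios kept 1.77, 1.83 and 0.66 (exact sign-flip p = 0.0312, the smallest possible). With 1 library left out, 5287 to 6629 genes changed, 25 to 33 members were higher, 0 were lower, 15 to 21 constitutive subunits were higher, and the pair differences were 1.64 to 2.03 for Psmb8/Psmb5, 1.70 to 2.05 for Psmb9/Psmb6 and 0.60 to 0.73 for Psmb10/Psmb7. The constitutive count was 15 with no low-count filter, 18 with DESeq2 size factors, 21 with DESeq2's Wald test or voom and 23 with limma on FPKM. On log2(FPKM + 1) the difference was 1.56 for Psmb8 and 1.45 for Psmb9, a scale that understates changes of low genes. With 1 library left out, 668 values of single named genes kept their side of the threshold, 64 lost a call and 12 gained one. Genes under the low-count filter were not tested.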
